A study of Mus musculus with 8 samples.

Results

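The genes of the claudins, tight junctions, adherens junctions and desmosomes were followed in seminal vesicle tissue of acrylamide treated and control mice. They were chosen by symbol alone, as every gene of the table named as a claudin, occludin or other MARVEL protein, a tight junction protein (Tjp) or cingulin, a junctional adhesion molecule, E-cadherin, Epcam, a catenin, a desmoglein, a desmocollin, a plakophilin, desmoplakin or plakoglobin. This gave 49 of the 17258 genes in the table. The 4 acrylamide treated males received 25 mg/kg bw/day of acrylamide by intraperitoneal injection on 5 consecutive days, and the 4 control males received the phosphate buffered saline vehicle. All were outbred Swiss mice of 8 to 12 weeks that carried no transgene or deletion as far as the labels state, and tissue was taken 72 h after the last injection, with the fluid squeezed out and the prostate dissected off. Each library was made from poly(A) RNA of the whole gland of a single mouse. The tissue label fits its markers, since all 8 genes of the luminal secretory list, Svs2 of the seminal coagulum among them, had a mean of at least 100, while none of the 4 adipocyte markers did.

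The seminal vesicle is lined by a secretory epithelium whose cells are sealed to each other near the lumen by tight junctions, held together below these by adherens junctions, and riveted by desmosomes. Claudins form the strands of the tight junction and set which ions pass between cells, and the Tjp (ZO) proteins and cingulin tie the strands to actin. E-cadherin bridges neighbouring cells in the adherens junction and binds the catenins, while desmogleins and desmocollins bridge cells in the desmosome and are linked to keratin filaments through plakoglobin, plakophilins and desmoplakin.

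The table held a single value for each gene in each group. Its scale is that of normalised reads, which are reads divided by a size factor per library, with no division by gene length. Summed over all genes, the group values came to 27433231 in acrylamide and 30956651 in control. For genes with a mean of both groups under 62.5, the reads of each of the 8 libraries could be worked out from the digits of the mean. The libraries are numbered within each group by falling size factor, from 1.11 to 1.03 in acrylamide and from 1.02 to 0.886 in control, and cannot be matched to single mice. Of the 49 junction genes, 29 had a mean of at least 100 and are given by group values, which carry no spread between mice and hence no test. How the mean is divided between the groups follows a ratio that the authors fitted, so the ratios below are not an independent estimate of it. The other 20 had recovered reads, and 11 of these had a mean of at least 1 and were tested. In whole tissue, fewer cells of a type and less RNA per cell cannot be told apart.

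At a mean of at least 100, none of the 29 junction genes reached a ratio of acrylamide to control of 1.5 or of 0.67. Of all 8932 genes at that level 1.40% did, so small a share that 0 of 29 does not set the junction genes apart. The log2 ratios ran between -0.29 for Cldn1 and 0.26 for Jam2, with a median of -0.04 (n = 29 genes), and the median over all 8932 genes was -0.02. At a fold of 1.1, 4 junction genes were higher in acrylamide (Jam2, Dsp, Tjp1 and Marveld1), or 13.8%, beside 15.9% of all genes. At the same fold 8 were lower (Cldn1, Cldn3, Cldn7, Ocln, Marveld3, Epcam, Pkp3 and Pkp4), or 27.6%, beside 20.0% of all genes, a difference that was not tested. This threshold was added after the values were seen, and its split turns with the scaling. When both groups were scaled to the same total of all genes, 14 junction genes were higher and 0 lower at a fold of 1.1, beside 53.9% and 2.49% of all genes, since that scaling adds 0.17 to every log2 ratio. The size of the error that mice add to these ratios is not known for abundant genes. In the 945 genes with recovered reads and a mean between 37.5 and 62.5, the median SE of the log2 difference was 0.21 in limma. Among the 29, only the ratios of Cldn1, Cldn3, Cldn7 and Jam2 were larger than 1 such SE. Differences from chance alone often pass 1 SE, so this does not separate changed from unchanged genes. The median SE fell with level, from 0.54 at a mean of 1 to 18.75, and need not hold for abundant genes.

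**Figure D1:**
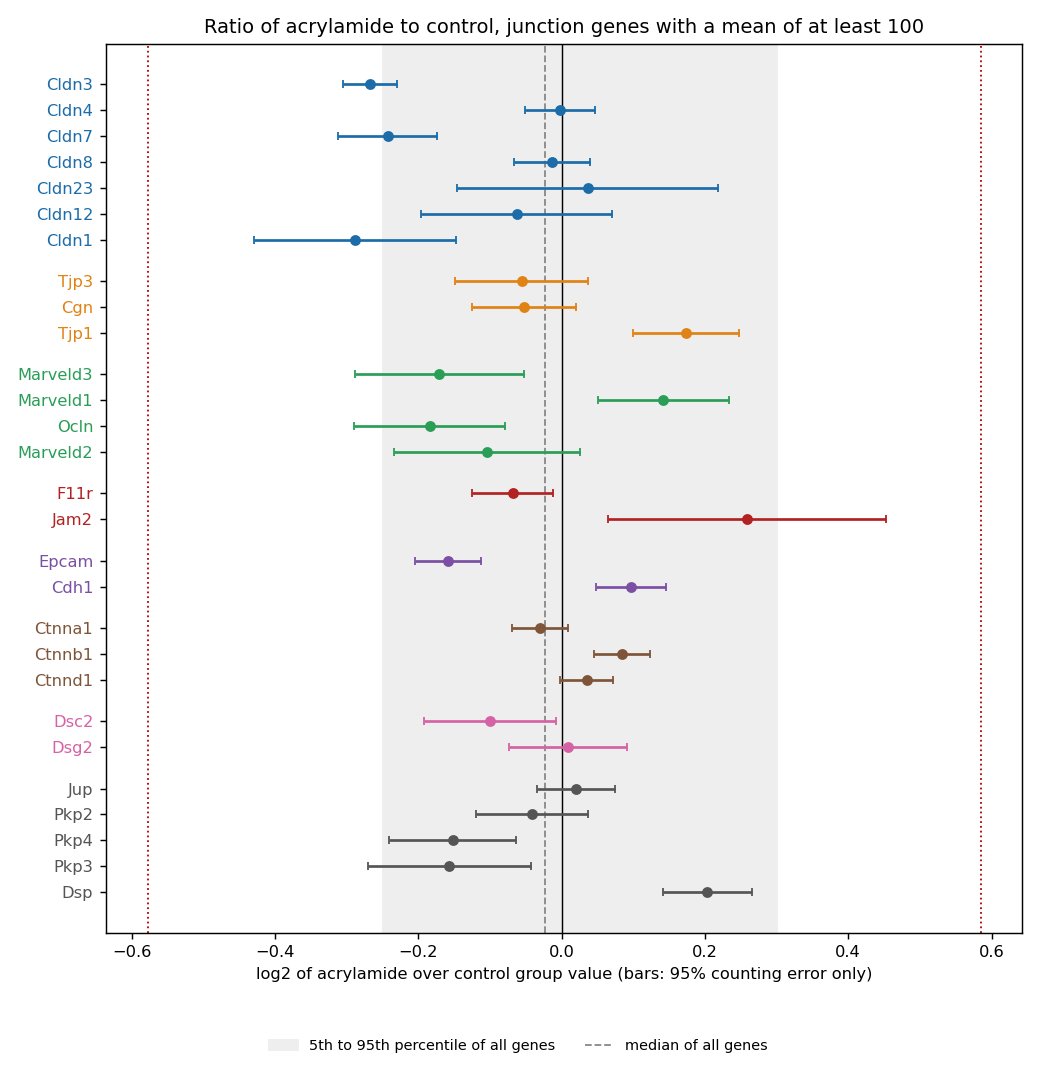
Log2 ratio of the acrylamide to the control group value for junction genes with a mean of at least 100, coloured by family, with bars for the 95% interval of counting error alone. The grey band holds the 5th to 95th percentile of all 8932 genes (-0.25 to 0.30), the dashed line is their median, and the dotted red lines mark folds of 1.5 and 0.67, which no junction gene reached.

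The promoters of Cldn3, Cldn4, Cldn7 and Epcam are shown because these were 4 of the most abundant junction genes per kb and their ratios differed, at -0.27 for Cldn3, 0.00 for Cldn4, -0.24 for Cldn7 and -0.16 for Epcam on the log2 scale. Cldn3 and Cldn4 are neighbours on chromosome 5 in opposite orientation, with 39.3 kb between them. Each sequence is the RefSeq window of 250 bases before to 50 after the start of transcription on the gene's own strand, in build GRCm38.p6, and for Cldn7 the downstream window of the pair in the table. Capitals mark the E-box CACCTG, to which the Snail and Zeb factors bind, and the GC box GGGCGG, to which Sp factors bind, on either strand.
Cldn3, chr5:134985964-134986263, plus strand: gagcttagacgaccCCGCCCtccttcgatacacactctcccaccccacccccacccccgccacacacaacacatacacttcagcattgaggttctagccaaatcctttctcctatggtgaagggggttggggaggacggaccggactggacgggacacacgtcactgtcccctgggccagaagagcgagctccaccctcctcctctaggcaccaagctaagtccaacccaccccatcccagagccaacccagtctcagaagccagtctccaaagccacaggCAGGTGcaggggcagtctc
Cldn4, chr5:134946885-134947184, minus strand: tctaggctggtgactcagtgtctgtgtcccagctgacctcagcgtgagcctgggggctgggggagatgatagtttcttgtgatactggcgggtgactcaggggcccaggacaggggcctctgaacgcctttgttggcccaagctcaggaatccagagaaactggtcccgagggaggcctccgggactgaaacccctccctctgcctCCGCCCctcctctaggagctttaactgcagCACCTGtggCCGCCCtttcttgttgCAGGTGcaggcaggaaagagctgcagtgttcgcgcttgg
Cldn7, chr11:69965171-69965470, plus strand: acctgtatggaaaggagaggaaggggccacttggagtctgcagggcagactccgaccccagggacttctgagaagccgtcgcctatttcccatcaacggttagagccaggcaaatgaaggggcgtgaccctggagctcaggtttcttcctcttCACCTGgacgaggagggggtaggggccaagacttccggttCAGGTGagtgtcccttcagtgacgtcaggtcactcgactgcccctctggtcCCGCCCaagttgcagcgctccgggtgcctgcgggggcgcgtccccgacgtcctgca
Epcam, chr17:87635729-87636028, plus strand: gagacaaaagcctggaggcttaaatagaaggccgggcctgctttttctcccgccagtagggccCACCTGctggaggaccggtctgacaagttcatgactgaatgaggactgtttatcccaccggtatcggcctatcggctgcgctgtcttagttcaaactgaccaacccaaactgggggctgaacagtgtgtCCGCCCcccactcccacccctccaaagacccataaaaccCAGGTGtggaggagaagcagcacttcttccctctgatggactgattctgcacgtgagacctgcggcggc
The window of Cldn3 held 1 E-box and 1 GC box, that of Cldn4 held 2 and 2, and the printed ones of Cldn7 and Epcam each held 2 E-boxes and 1 GC box. The upstream window of Cldn7, which is not printed, held 0 E-boxes and 0 GC boxes. Of the 49 junction genes, 32 were matched to 47 windows, some of which overlap within a gene and are counted each, and the others, such as Cdh1 and Cldn8, were not analysed here. The E-box stood in 16 of the windows, or 34.0%, and in 20.2% of all 32851 windows of that length. The GC box stood in 29, or 61.7%, and in 35.7% of all windows. The motifs do not overlap in these letters, and a match describes the sequence only.

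Claudins made up 19 of the 49 junction genes, and 4 of them carried nearly all of the family's level. Per kb of its longest transcript, Cldn3, a sealing claudin of simple epithelia, stood at 2037 normalised reads in acrylamide and 2451 in control, rank 219 and rank 198 of the genes with a length. Cldn4, another claudin that limits sodium passage, followed at 924 per kb in acrylamide and 925 in control. Cldn7, which also lies along the side of epithelial cells, stood at 581 per kb in acrylamide and 688 in control. Cldn8, which works with Cldn4 in the kidney, stood at 602 and 607 per kb in acrylamide and control. Cldn7 stood below Cldn8 in acrylamide and above it in control, and without a spread between mice their order is not settled. By share of the claudin sum per kb, Cldn3 held 46.4% in acrylamide and 49.8% in control, Cldn4 held 21.0% in acrylamide and 18.8% in control, Cldn7 13.2% and 13.99%, and Cldn8 13.7% and 12.4%.

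**Figure D2:**
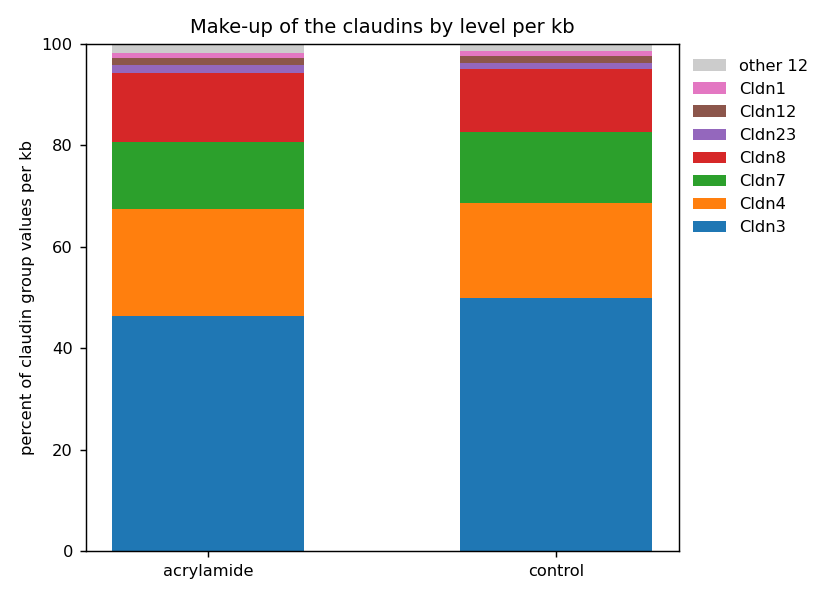
Share of each claudin in the sum of the 19 claudin group values per kb of longest transcript, in percent, acrylamide left and control right. Cldn3, Cldn4, Cldn7 and Cldn8 fill most of both bars, and Cldn3 holds 46.4% in acrylamide and 49.8% in control.

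Among the 7 claudins with a mean of at least 100, 6 had a lower value in acrylamide and 1 a higher value, beside 3917 of all 8932 genes with a higher value. The median log2 ratio of these claudins was -0.06, beside -0.02 for all genes. Scaled to the same total of all genes, only Cldn1, Cldn3 and Cldn7 stayed lower, and Cldn4, Cldn8 and Cldn12 came to 0.17, 0.16 and 0.11. Cldn3 had a value of 2564 in acrylamide and 3086 in control (log2 ratio -0.27), and only 4.09% of all genes at that level had as low a ratio or a lower one. Cldn7 had 776 in acrylamide and 919 in control (log2 ratio -0.24, percentile 5.47). Cldn1, a claudin essential to the skin barrier, was far less abundant, with 182 in acrylamide and 222 in control (log2 ratio -0.29, percentile 3.19). These 3 had the lowest ratios of the 29 junction genes. The other abundant pair hardly differed, with 1677 in acrylamide and 1679 in control for Cldn4 and 1418 and 1431 for Cldn8. Cldn12 had 219.6 in acrylamide and 229 in control, and Cldn23 had 122 and 119. Counting error alone gives an SE of 0.02 for the log2 ratio of Cldn3, 0.04 for Cldn7 and 0.07 for Cldn1, and the spread between mice comes on top of it. Cldn3 overlaps the exons of Wbscr25 on the other strand, and no strand setting is stated for the counting.

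Beside the lower claudin values stood lower values of the secretory epithelium. All 8 markers of the luminal secretory cells (Svs2, Svs4, Svs5, Pate4, Sva, Krt8, Krt18 and Krt19) were lower in acrylamide, with log2 ratios between -0.30 and -0.04 and a median of -0.22, none past a fold of 0.67, and Pate4, Krt18 and Krt19 turned higher with the groups scaled to the same total. Svs4, Svs5, Sva and Pate4 have longest transcripts of 628 to 1072 bases, and all genes of like length had a median log2 ratio of -0.17. The other luminal markers have 1437 to 1958 bases, where that median lay between -0.14 and -0.10. All 6 smooth muscle markers were higher, with log2 ratios between 0.16 and 0.61 and a median of 0.32. Of the 5 fibroblast markers, 3 were higher, Dcn and Lum were lower, and the median was 0.40. Over all cell type lists, 35 markers had a mean of at least 100 and 3 were past the fold, all higher in acrylamide, beside 1.40% of all genes past it in either direction. These were Actg2, smooth muscle gamma actin, at 7778 in acrylamide and 5099.7 in control, Ptprc, the CD45 of leukocytes, at 125 and 81.6, and Vwf of endothelium. The part of tissue make-up in the claudin ratios was not tested. Epcam, an adhesion protein found along the sides of simple epithelial cells that binds Cldn7, had 1796 in acrylamide and 2005 in control (log2 ratio -0.16). Cdh1, the E-cadherin of the same cells, had 1759 in acrylamide and 1644 in control (log2 ratio 0.10). Scaled to the same total of all genes, both were higher in acrylamide, Epcam by 0.02 and Cdh1 by 0.27. That scaling moved the median of all genes to 0.15. Without the Svs genes in the total, Epcam came to -0.10 and Cdh1 to 0.15.

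**Figure D3:**
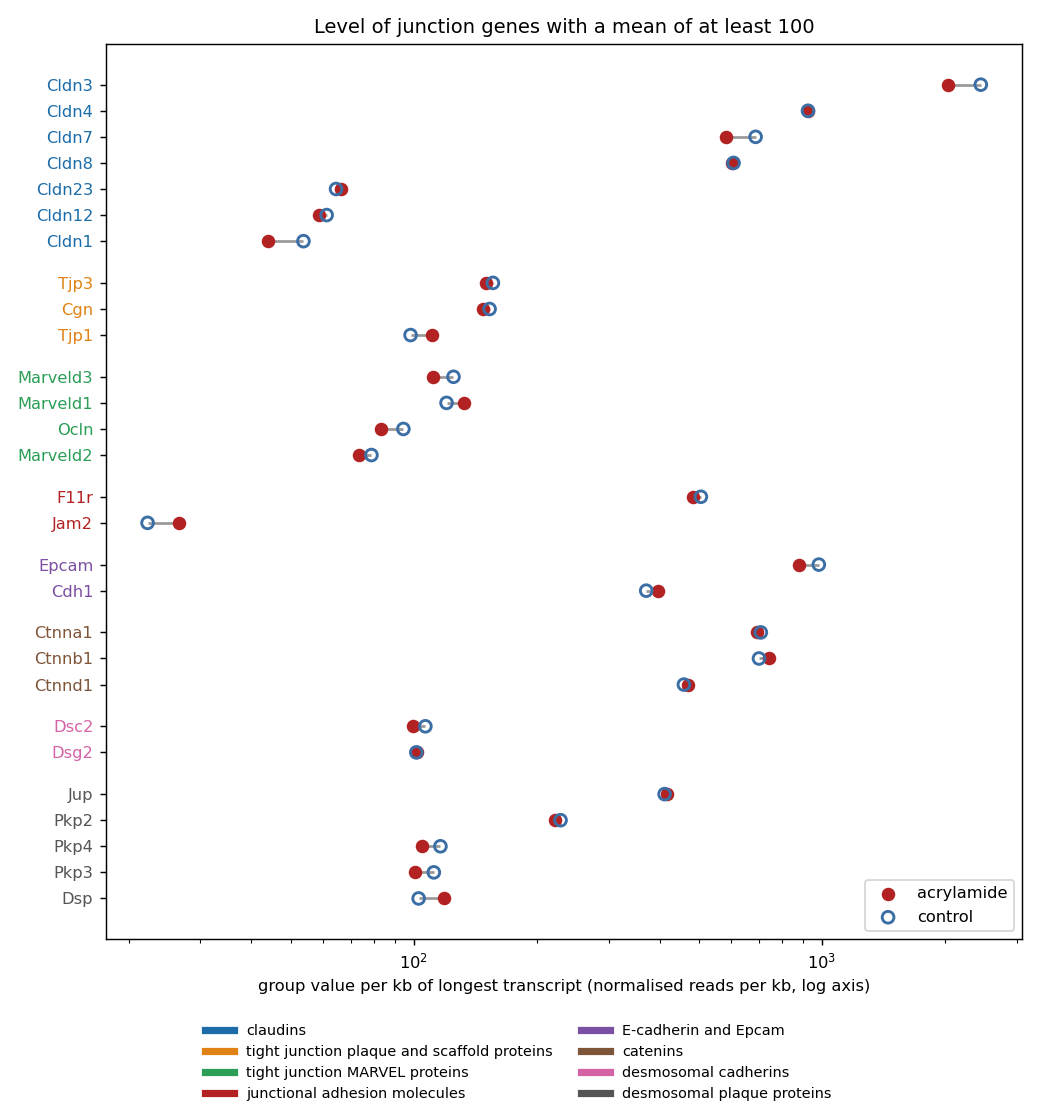
Group value divided by the length of the longest transcript (normalised reads per kb, log axis) for junction genes with a mean of at least 100, by family, with filled red points for acrylamide and open blue circles for control. Cldn3 is the highest at 2037 in acrylamide and 2451 in control, and Jam2 the lowest at 26.6 in acrylamide and 22.3 in control.

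The plaque proteins of the tight junction stood at similar levels per kb. Tjp3 (ZO-3), the epithelial member, stood at 150.3 per kb in acrylamide and 156 in control, cingulin (Cgn) at 148 and 153, and Tjp1 (ZO-1) at 111 and 98.2. The same order held in both groups. Tjp1 had the highest ratio of these, with a value of 781 in acrylamide and 692 in control (log2 ratio 0.17), while Cgn had 741 and 769 (-0.05) and Tjp3 had 455 and 472 (-0.06). Tjp1 is also expressed outside epithelium, in vessels and smooth muscle among others. Tjp3 overlaps the exons of Apba3 on the other strand, which had 410.4 in acrylamide and 435 in control.

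Of the MARVEL proteins, which span the membrane at the tight junction and, in the case of tricellulin (Marveld2), at the corners where cells meet, 3 of 4 had lower values in acrylamide, of which only Ocln stayed lower, at -0.01, with the groups scaled to the same total. Occludin (Ocln) had 336 in acrylamide and 382 in control (log2 ratio -0.18), Marveld3 had 272 and 306 (-0.17), and Marveld2 had 228 and 245 (-0.10). Marveld1, a less studied member that has also been placed in the nucleus, had 498 in acrylamide and 452 in control (0.14). Among the junctional adhesion molecules, F11r (JAM-A), the epithelial one, held 89.3% of the family sum per kb in acrylamide and 90.8% in control, with values of 1213 in acrylamide and 1272.0 in control (log2 ratio -0.07). Jam2 (JAM-B), known from endothelium, had 116 in acrylamide and 97.3 in control, the highest log2 ratio among the 29 junction genes with a mean of at least 100 at 0.26, with an SE of 0.10 from counting alone.

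Of the 6 catenins, 3 had a mean of at least 100, and their log2 ratios lay between -0.03 and 0.08. Ctnnb1 (beta-catenin), which binds the tail of E-cadherin and also acts in Wnt signalling, had 2694 in acrylamide and 2541 in control (log2 ratio 0.08). Ctnna1 (alpha-catenin), which joins that complex to actin, had 2591 in acrylamide and 2645 in control (-0.03). Ctnnd1 (p120 catenin), which keeps E-cadherin at the surface, had 2992 in acrylamide and 2920.4 in control (0.04). Per kb, Ctnnb1 stood at 743 in acrylamide and 701 in control and Ctnna1 at 694 and 709, a ratio of 1.07 in acrylamide and 0.99 in control. Cdh1 stood at 397 per kb in acrylamide and 371 in control, or 0.53 of Ctnnb1 in both groups. In the annotation Gm28635, a record on the same strand, overlaps exons of Ctnnd1 and of Tmx2. Tmx2 had 564 in acrylamide and 548 in control.

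Of the 5 desmosomal cadherins, Dsg2 and Dsc2 had a mean of at least 100. These, the widely expressed desmoglein and desmocollin, had nearly equal levels per kb, at 102 and 99.6 in acrylamide and 101 and 107 in control. Dsg2 had a value of 589 in acrylamide and 585 in control (log2 ratio 0.01) and Dsc2 had 461 and 494 (-0.10). Of the plaque, plakoglobin (Jup), which is shared with adherens junctions, was highest per kb at 417 in acrylamide and 412 in control. Pkp2, the plakophilin of simple epithelia, followed at 222 in acrylamide and 229 in control. Desmoplakin (Dsp), which anchors keratin filaments, had a value of 1135 in acrylamide and 986 in control (log2 ratio 0.20, percentile 90.6). Pkp3 had 293 in acrylamide and 327 in control (-0.16), and Pkp4, which is also found at adherens junctions, had 483 and 536 (-0.15).

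In control the 10 highest junction genes per kb, from the top, were Cldn3, Epcam, Cldn4, Ctnna1, Ctnnb1, Cldn7, Cldn8, F11r, Ctnnd1 and Jup. The same genes led in acrylamide, where Cldn4 stood above Epcam, Ctnnb1 above Ctnna1, and Cldn8 above Cldn7. With the median in place of the longest transcript length, 8 of these 10 stayed among the 10 highest, and with no division by length 9 did. All 49 junction genes together took 0.107% of the summed group values in acrylamide and 0.0966% in control, sums that a few secretory genes dominate.

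The ratios of the junction genes went along with transcript length, as those of all genes did. Over all 8735 genes with a mean of at least 100 and a known length, Spearman's rho between the length of the longest transcript and the log2 ratio was 0.47, and over the 29 junction genes it was 0.46. These are correlations across genes that share the same 8 libraries. With the median transcript length, rho was 0.28 over all genes and 0.15 over the junction genes. The 14 junction genes with shorter transcripts (1259 to 3623 bases) had a median log2 ratio of -0.06, beside -0.08 for the median of all genes of like length. The 14 with longer transcripts (3752 to 9592 bases) had a median of 0.02, beside 0.02.

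The claudins with the lowest ratios differed in this respect. Cldn3 and Cldn7 have transcripts of 1259 and 1335 bases, a length at which the median log2 ratio of all genes was -0.14, and with that subtracted they came to -0.12 and -0.10. Cldn1 has a transcript of 4145 bases, and with the median of like genes subtracted (0.00) it stayed at -0.29. Of the other claudins with a mean of at least 100, Cldn4 came to 0.09, Cldn8 to 0.07, Cldn23 to 0.13 and Cldn12 to -0.05. Ocln stayed at -0.18 and Pkp4 at -0.17. At the other end, Dsp, with the longest transcript of the list at 9592 bases, came to 0.10 and Tjp1 to 0.09, whereas Jam2 stayed at 0.24. After this subtraction, 2 junction genes were higher at a fold of 1.1 and 3 were lower, beside 15.6% and 10.9% of all genes. The source of the length trend was not tested.

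**Figure D4:**
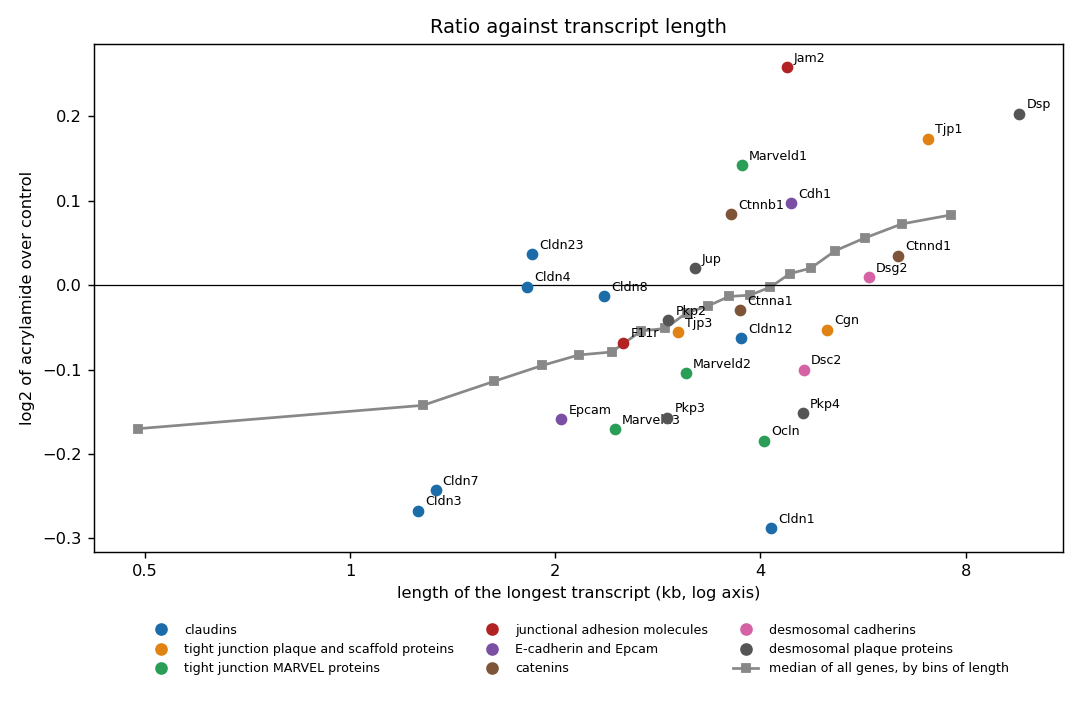
Log2 ratio of acrylamide to control against the length of the longest transcript (kb, log axis) for junction genes with a mean of at least 100, coloured by family, with the grey line for the median of all genes in bins of length (without the bin of the longest transcripts). Cldn3 and Cldn7 lie at the short end with ratios of -0.27 and -0.24, Dsp at the long end with 0.20, and Cldn1 lies furthest below the line.

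The few-read junction genes gave a second view, since their reads could be set out library by library. Those with a mean of at least 1 were tested with limma on log2 of normalised reads with 1 added, with Benjamini-Hochberg adjustment across the 5142 genes of that level with recovered reads. None of the 11 was called at an adjusted p of at most 0.1 and a fold of 1.5, beside 0.0194% (1 gene) of all genes. None had an unadjusted p under 0.05, beside 8.73% of all genes. In no junction gene were the groups separate, which was so in 4.55% of all genes. The exact two-sided permutation test over the 70 divisions of the libraries has a smallest p of 0.0286, and no other p under 0.05 is possible. Only groups that do not overlap reach it. Its count of 0 of 11 junction genes under 0.05, beside 234 of all 5142 genes, thus restates the overlap and is no further test. Few-read genes as a whole stood higher in acrylamide, with a median log2 fold of 0.13 and summed normalised reads of 97091 to 110873 per acrylamide library, against 91776 to 93592 per control library.

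Cldn5, the claudin of blood vessel endothelium, had 91, 73, 52 and 70 reads in the 4 acrylamide libraries, against 55, 70, 38 and 50 in the 4 control libraries. The first acrylamide library was the highest and the third control library the lowest, and the groups overlapped. After normalisation Cldn5 averaged 66.9 ± 12.7 in acrylamide and 56.0 ± 12.9 in control (SD, n = 4 each), a log2 fold of 0.26 with an SE of 0.20 (exact permutation p = 0.286). Its 95% interval, -0.16 to 0.68, holds 0 and the 0.13 of all few-read genes. Of the 7 blood endothelium markers, 6 had a higher value in acrylamide, and the list summed to 1033 in acrylamide and 878 in control. Vwf, von Willebrand factor, was past the fold at 143 in acrylamide and 92.5 in control. The part of vessel content in the Cldn5 and Jam2 values was not tested.

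Jam3 (JAM-C), found on vessels and in several other cell types, had 80, 64, 51 and 63 reads in acrylamide, against 67, 57, 39 and 51 in control. The groups overlapped, and its log2 fold was 0.11 with an SE of 0.18 (exact permutation p = 0.571). Pkp1, the plakophilin of stratified epithelia, had 43, 78, 44 and 54 reads in acrylamide, against 65, 55, 51 and 22 in control. The fourth control library was low, and the normalised means were 51.4 ± 14.7 in acrylamide and 50.2 ± 17.3 in control (SD, n = 4 each). Basal epithelial cells, which can express Pkp1, were represented by 5 markers that summed to 2015 in acrylamide and 1846 in control. Of the 4 with a mean of at least 100, 3 were higher in acrylamide, such as Krt5 at 756 in acrylamide and 694 in control, and Krt15 was lower at 402 and 445. Ctnnd2 (delta-catenin), best known from neurons, had 38, 31, 41 and 27 reads in acrylamide, against 27, 50, 26 and 28 in control. Its groups overlapped too, with a log2 fold of -0.06 and an SE of 0.25.

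Cldn15, a pore-forming claudin of the intestine, had 18, 31, 26 and 21 reads in acrylamide, against 16, 9, 27 and 25 in control. Both groups spread widely, and the log2 fold was 0.23 with an SE of 0.35. Of the 5 intestine markers, 3 were measured, with Lgals4 at 145 in acrylamide and 154 in control, Vil1 at 7.04 and 5.33, and Cdh17 at 1.15 and 2.39, and their sum was 153 in acrylamide and 162 in control. Cldn22 had 5, 14, 11 and 14 reads in acrylamide, against 9, 12, 8 and 6 in control. It is a single-exon gene whose exon overlaps Wwc2 on the other strand. Wwc2 had 646 in acrylamide and 598 in control, so the reads given to Cldn22 are uncertain. Cldn11, the claudin of myelin and of Sertoli cells, had 5, 3, 8 and 19 reads in acrylamide, against 17, 4, 7 and 1 in control. In each group a single library held most of its reads.

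Cldn10, a pore-forming claudin of kidney and glands, had 3, 5, 1 and 6 reads in acrylamide, against 2, 3, 1 and 2 in control, and Cldn6, a claudin of embryonic epithelia, had 4, 1, 1 and 0, against 3, 2, 2 and 0. Desmocollins of stratified epithelium were near the limit of detection. Dsc1 had 4, 6, 3 and 0 reads in acrylamide, against 8, 5, 2 and 6 in control. Its log2 fold of -0.88 had the smallest p of the 11 genes, with an SE of 0.61, an interval of -2.17 to 0.41 and an adjusted p of 0.708 in limma (exact permutation p = 0.286). Dsc3 had 1, 3, 0 and 1 reads in acrylamide, against 2, 2, 2 and 0 in control. Of the 6 markers of stratified cornified epithelium, none reached a mean of 100, and the 5 in the table summed to 23.3 in acrylamide and 25.0 in control.

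**Figure D5:**
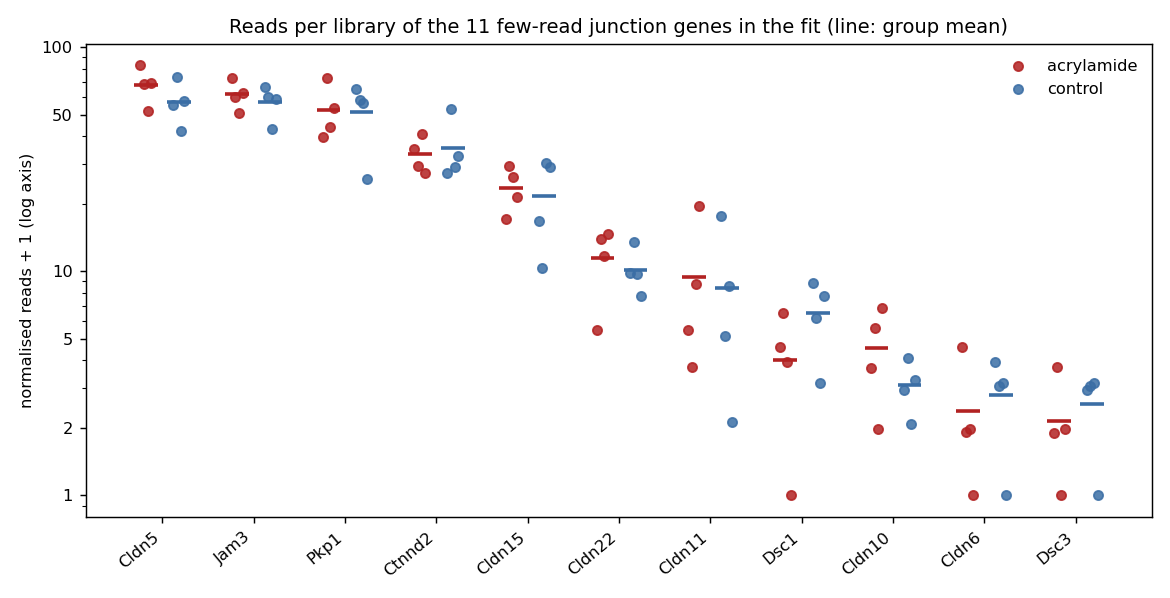
Normalised reads with 1 added (log axis) of the 11 few-read junction genes with a mean of at least 1, with 1 point per library, red for acrylamide and blue for control, and lines at the group means. The groups overlap in all 11 genes, and Cldn5 averages 66.9 in acrylamide and 56.0 in control.

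The remaining 9 genes had 1 to 5 reads over all 8 libraries. Cldn2, the leaky claudin of kidney and intestine, had 4 reads in acrylamide and 1 in control. Cldn14 had 3 and 2, Cldn20 had 3 and 1, Dsg1c had 3 and 1, Cldn19 had 2 and 1, and Cldn9 had 1 and 1. Cldn24 had 2 reads in acrylamide and 0 in control, Ctnna3 had 1 and 0, and Ctnna2 had 0 and 2. All of these stood at or near a floor of 3 reads per group, so no fold is given and no difference was detectable at this depth.

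Further junction genes were taken from lists beyond the symbols above. Of 12 measured adherens junction partners, 9 had a mean of at least 100 and none was past the fold, with a median log2 ratio of 0.14. The highest ratio was that of Cdh5, the cadherin of endothelium, with 191 in acrylamide and 131 in control (0.54). Vcl, vinculin, had 1568 in acrylamide and 1388 in control (0.18). Of 24 tight junction scaffold, polarity and angulin genes, 21 had a mean of at least 100, and 1 was past the fold, beside 1.40% of all genes. This was Magi1, a scaffold with WW and PDZ domains, with 717 in acrylamide and 1110.4 in control (log2 ratio -0.63). The angulin Ildr1, which recruits tricellulin, had 2209 in acrylamide and 2332 in control, and the cingulin relative Cgnl1 had 2423 and 2261.

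Of 7 desmosome and cornified envelope genes, 3 had a mean of at least 100 and none was past the fold. Perp, a desmosome protein and p53 target, had 2463 in acrylamide and 3047 in control (log2 ratio -0.31). Of 15 measured gap junction genes, 3 had that level and none was past the fold. Gjb1 (connexin 32) had 845 in acrylamide and 1095 in control (-0.37), Gjb2 (connexin 26) had 328 and 351, and Gja1 (connexin 43) had 121 and 120.3. A further list held regulators of epithelial genes, both activators and repressors, with splicing factors among them. Of its 14 measured genes, 6 had a mean of at least 100 and none was past the fold. Grhl2, which drives Cdh1 and claudin genes in epithelia, had 965 in acrylamide and 954 in control, and the splicing factor Esrp1 had 1540.5 and 1595. Snai1, a repressor of Cdh1, had a log2 fold of 0.90 with an SE of 0.19 in limma and was not called at an adjusted p of 0.195. A link between the Snai1 and Cdh1 values was not tested.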

How the data were processed

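RNA-seq of 8 libraries, from 4 acrylamide treated and 4 control mice, was used. Low-quality reads had been removed by SOAPnuke before the authors aligned the rest to mm10 (HISAT2), predicted further genes (StringTie, Cufflinks) and quantified all genes (RSEM). The 2 signal columns deposited by the authors give each gene's level in a group, as reads over DESeq2 size factors. Where reads were recovered, both values average to the mean of all 8 libraries, and a ratio fitted by the authors divides it between the groups. The authors' columns of fold change, log2 fold change, p-value, adjusted p and -log10 adjusted p hold their comparison and were not used, though the group values carry the same fit.

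The ratio of the group values, which is that fitted ratio and no independent estimate, was counted at a mean of at least 100 and a fold of 1.5 or 0.67. Counting error takes the value of a group as the mean of 4 Poisson counts and covers no spread between mice. Reads of single libraries were solved as whole numbers from the digits of that mean, with 5086 of 5087 genes below a mean of 18.75 and 1969 of 2111 genes between 18.75 and 62.5 recovered. The search and the fit were tested on simulated data, where a few genes near the highest mean were wrong or not recovered. Reads were tested with limma 3.58.1 (trend) in R 4.3.3 on log2 of normalised reads with 1 added, at a minimum mean of 1. The tests of reads measure the spread between mice. The paper reports reads per library, but depth entered here only as size factors. Abundant genes have no value per library, so their precision is unknown beyond counting.

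Transcript lengths came from GENCODE (GRCm38, the build of mm10) for 16573 of 17258 genes, and promoters from RefSeq. Scripts ran in Python 3.11.15 (numpy 2.4.6, scipy 1.17.1, pandas 2.3.3, matplotlib 3.10.9). Alternatives were other scalings, folds, minimum levels, pseudocounts and lengths, and leaving out each library or family. Genes named are the junction genes, and of each further list those past the fold and up to 2 of the highest level. Cdh5, Krt5, Krt15, Vil1, Cdh17, Gja1, Gjb2, Perp, Grhl2, Esrp1, Snai1 and the fold of 1.1 were chosen in part after values were seen. The members, lists and families were chosen with earlier results of these data known. A few listed genes enter the counts without their own values being given or plotted.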

Additional observations from a re-analysis of the deposited data

Results flagged for a closer look

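In the few-read junction gene Dsc3, 1 of the 4 control libraries had 0 normalised reads and stood apart from the other 3, which had 2 reads each. The gap was large against the range of the 4 libraries. The rule is meant to flag about 1 in 20 groups by chance, and 22 groups of 4 libraries were looked at. That rate need not hold for so few whole reads. Dsc3 stood near the limit of detection, so the flag does not single out the library.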

How the results depend on the processing

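The count of junction genes past a fold of 1.5 was 0 and stayed 0 under the 3 scalings, at the lower and the higher of the planned other folds, at a minimum mean of 10 and with the length trend subtracted. It came to 2 at a minimum mean of 1 and 7 with no minimum, where the genes have few reads and the group values follow the fitted ratio, and to 12 at the added fold of 1.1. The median log2 ratio of -0.04 became 0.13 when each group was scaled to the same total of all genes, which moved the median of all genes to 0.15, and 0.02 without the Svs genes in that total. With the median ratio of all genes set to 1 it was -0.02, and without each family in turn it lay between -0.05 and -0.03. The count of few-read junction genes called was 0 under all alternatives run, between 0 and 0 when each library was left out. Over all few-read genes, 0 to 2 were called, against 1 in the fit of all libraries. The count of cell type markers past the fold was 3, and 6 with each group scaled to the same total, which was chosen after seeing the data. No paired analysis was possible because the columns carry no replicate number. Abundant genes have no value per library, so their ratios have no test, and few reads limit the claudins and desmosomal cadherins below a mean of 1.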
